A study of Mus musculus with 15 samples.

Results

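The 10 endothelial genes Pecam1, Cdh5, Kdr, Flt1, Tek, Tie1, Emcn, Vwf, Esam and Eng were followed across 15 mouse tumors of 4 treatment groups. They were taken as a named set, each through the probe set that carried its symbol alone and had the highest mean over the 15 arrays. They made up 10 of the 18193 genes measured in this way, and all 10 had such a probe set.

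The tumors were grown from PDA30364, a mouse pancreatic ductal adenocarcinoma line, after cells in a PBS and Matrigel mixture had been placed under the flank skin of C57BL/6-Ly5.1 mice aged 6 to 12 weeks. The groups were the MEKi/CD40 Ab combination (30 mg/kg GDC-0623 each day with agonist anti-CD40 antibody, n = 4), MEKi (the same GDC-0623 dose with control IgG, n = 3), CD40 Ab (vehicle with the anti-CD40 antibody, n = 4) and control (vehicle with control IgG, n = 4). GDC-0623 inhibits the kinase MEK, and every mouse received the agonist or control antibody on days 3, 5 and 7 of treatment, with a last dose 1 day ahead of collection. Tumors were collected 26 days after inoculation. The model is 1 transplanted line outside the pancreas, and each array holds RNA of a whole tumor piece from 1 mouse.

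Endothelial cells line blood and lymph vessels and, in tumors, sprout from host vessels under the control of VEGF ligands and their receptors. Kdr (VEGFR2) is the main receptor through which VEGF-A drives endothelial growth, whereas Flt1 (VEGFR1) binds VEGF-A tightly and can act as a decoy. Tek (TIE2) is the angiopoietin receptor and Tie1 its partner. Pecam1, Cdh5 (VE-cadherin) and Esam hold neighboring endothelial cells together, Emcn is a sialomucin of venous and capillary surfaces, Eng is a co-receptor for BMP9 and TGF-beta family ligands, and Vwf is the blood clotting glycoprotein that endothelial cells store and release. ETS family factors, which bind a GGAA core, are known regulators of many of these genes.

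The start-site regions of Eng and Kdr, are shown because these are the endothelial genes that were called higher in combination tumors. Each sequence runs 5′ to 3′ on the gene's strand from 250 bases before to 50 bases after the annotated start in RefSeq (GRCm38.p6), which also covers the first part of the transcript. Eng lies at chr2:32646345-32646644 on the plus strand and Kdr at chr5:75978406-75978705 on the minus strand. Capitals mark GGAA and its reverse complement TTCC.
Eng: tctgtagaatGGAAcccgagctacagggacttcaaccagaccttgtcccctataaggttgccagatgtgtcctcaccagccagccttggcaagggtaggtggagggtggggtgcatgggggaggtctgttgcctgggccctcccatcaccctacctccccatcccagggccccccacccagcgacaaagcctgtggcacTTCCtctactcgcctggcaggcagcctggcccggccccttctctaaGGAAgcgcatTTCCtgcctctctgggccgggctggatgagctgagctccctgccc
Kdr: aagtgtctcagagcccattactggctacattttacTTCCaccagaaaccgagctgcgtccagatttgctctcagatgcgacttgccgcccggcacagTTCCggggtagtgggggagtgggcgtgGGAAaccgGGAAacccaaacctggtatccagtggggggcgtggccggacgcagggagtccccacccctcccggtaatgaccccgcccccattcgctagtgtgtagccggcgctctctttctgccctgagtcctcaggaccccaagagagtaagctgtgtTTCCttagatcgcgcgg
The Eng region held 4 and the Kdr region 5 such cores. Of the endothelial genes that were not called in combination tumors, Tie1 held 9, Emcn 6, Flt1 4 and Tek 2, so the number of cores did not set the called genes apart. The median was 3 over the 32851 promoters of 300 bases in the table, of which 96% held at least 1. The longer form CCGGAA or TTCCGG, searched on both strands and overlapping the core, occurred in 14.9% of those promoters. Of the 6 endothelial genes with a promoter in the table (Kdr, Flt1, Tek, Tie1, Emcn and Eng), 1 held it, namely Kdr, from base 98 of the sequence shown. These matches describe the letters only.

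All values below are log2 RMA signals, so a difference of 1 is a doubling. RMA is a background correction, quantile normalization and summarization of the array probes. Array medians were between 5.16 and 5.24, and the number of arrays limited the precision. The animal numbers formed a series below 10000 and a series above it, with all 4 combination tumors in the lower and all 3 MEKi tumors in the upper series. The controls were split 3 to 1 and the CD40 Ab tumors 2 to 2. Genes of skeletal muscle, which can adjoin a subcutaneous tumor, had a mean list level (16 genes) of 7.69 to 9.17 in combination, 7.40 to 10.1 in MEKi, 4.59 to 6.29 in CD40 Ab and 4.53 to 6.73 in control tumors. Genes of skin and hair (13 genes) were at 4.44 to 5.12 in combination, 6.73 to 7.50 in MEKi, 4.44 to 5.58 in CD40 Ab and 4.43 to 6.21 in control tumors. MEKi tumor 1 and CD40 Ab tumor 1 stood apart in the endothelial genes themselves. In these whole-tumor samples, fewer endothelial cells and less RNA per endothelial cell cannot be told apart.

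Treatment with MEKi was accompanied by a low level of Vwf, while Eng was higher in MEKi and combination tumors than in controls and Kdr was higher in combination tumors. Differences were called at a Benjamini-Hochberg adjusted p below 0.05 from limma, adjusted over all 45037 probe sets. In the combination against control, 2 of the 10 genes were called, both up, whereas 14.3% of all probe sets were called (7.09% up and 7.23% down). In MEKi against control, 1 gene was called up and 1 down, against 15.9% of all probe sets (7.52% up and 8.38% down). No gene of the 10 was called in CD40 Ab against control, where 0.717% of probe sets passed (0.659% up and 0.0577% down). Without adjustment, 1 of the 10 had p below 0.05 there, and 10% of all probe sets did. In the combination against MEKi, 1 gene was called up (2.81% of all probe sets were called, 1.01% up and 1.79% down). In the combination against CD40 Ab none was (4.48% of all, 2.54% up and 1.94% down), with 1 of the 10 below 0.05 without adjustment, beside 21.7% of all probe sets. With 10 genes, 1 gene is 10% of the set, so these counts lie close to what all probe sets gave and show nothing particular to the endothelial genes. The median log2 difference over the 10 genes was 0.09 in combination, 0.29 in MEKi and 0.20 in CD40 Ab tumors relative to control, beside medians of -0.04, -0.05 and -0.01 over all probe sets.

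**Figure D1:**
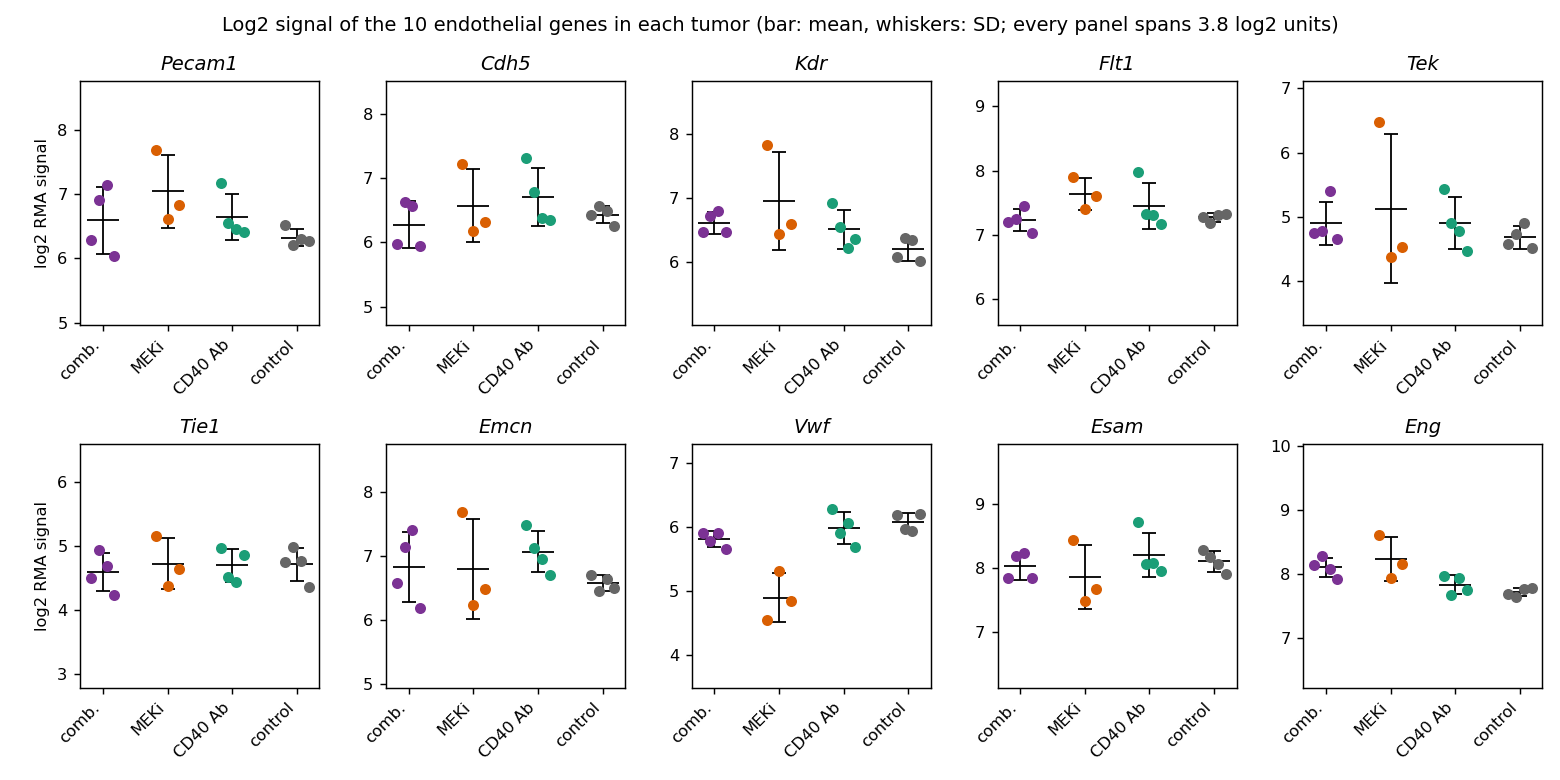
Log2 RMA signal (vertical axis, 3.8 units in each panel) of the 10 endothelial genes in combination, MEKi, CD40 Ab and control tumors. Points are tumors, bars group means and whiskers SD. Vwf in the 3 MEKi tumors lies between 4.54 and 5.31, below all other tumors, while 1 MEKi tumor is the highest point for Pecam1, Kdr, Tek, Tie1, Emcn and Eng.

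Vwf, the stored clotting factor, showed the largest of these differences. Its level was 5.91, 5.78, 5.91 and 5.65 in combination tumors 1 to 4, 4.54, 5.31 and 4.84 in MEKi tumors 1 to 3, 6.28, 5.91, 6.06 and 5.68 in CD40 Ab tumors 1 to 4 and 6.18, 5.97, 5.94 and 6.20 in control tumors 1 to 4. The MEKi tumors did not overlap any other group, and the combination tumors were all below the controls. Vwf was 1.18 ± 0.17 lower in MEKi than in control tumors (log2 difference -1.18, SE as fitted by limma, 95% interval -1.57 to -0.78, adjusted p = 0.00349), which is 0.443 times the control signal. Vwf averaged 5.74 over 15 arrays, but its mean of 4.90 in MEKi tumors lay below 5.202, the median over all probe sets. The ratio thus rests partly on dim signals, and no further probe set carried the Vwf symbol alone. In the combination the difference from control was -0.26 ± 0.09 (adjusted p = 0.0823), and relative to MEKi alone Vwf was 0.92 ± 0.17 higher (adjusted p = 0.0334). In CD40 Ab tumors it was -0.09 ± 0.12 from control (adjusted p = 0.876).

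Whether CD40 Ab moved Vwf differently with MEKi than without it was tested as the difference between combination and MEKi minus the difference between CD40 Ab and control. This interaction was 1.01 ± 0.22 for Vwf (95% interval 0.53 to 1.48, adjusted p = 0.0245). Vwf was the 1 endothelial gene of the 10 past the threshold, and 3.2% of all probe sets passed (1.5% up and 1.7% down). For the other 9 genes the interaction was between -0.78 and 0.06, with 1 of them (Flt1, -0.58 ± 0.22, adjusted p = 0.189) below 0.05 before adjustment, beside 17.4% of all probe sets.

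The lower Vwf level in MEKi than in control tumors held without any 1 array, between -1.38 and -0.998. With muscle and skin list levels as covariates it was -1.38 (adjusted p = 0.0365), and it was -1.30 with the animal number series as a covariate, where the call was lost (adjusted p = 0.0731). The calls of Vwf in the combination against MEKi and in the interaction were lost without some arrays. Without combination tumor 1, 2, 3 or 4 or MEKi tumor 3, Vwf in the combination against MEKi had an adjusted p of 0.0880, 0.0999, 0.0921, 0.0687 and 0.130, and without control tumor 1, control tumor 4 or MEKi tumor 3 the interaction had 0.0531, 0.0505 and 0.0628. With muscle and skin list levels as covariates these adjusted p were 0.0925 for the combination against MEKi (1.43) and 0.0670 for the interaction (1.54), and the interaction had 0.235 with the animal number series as a covariate (0.94). The combination against MEKi had 0.159 with the replicate number as a block (0.97). All combination tumors are in the lower and all MEKi tumors in the upper animal number series, so that series and treatment cannot be told apart between them.

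Eng, the co-receptor for BMP9, was the endothelial gene called in both arms with MEKi. It measured 8.15, 8.28, 8.08 and 7.92 in combination tumors, 8.62, 7.95 and 8.16 in MEKi tumors, 7.98, 7.68, 7.94 and 7.76 in CD40 Ab tumors and 7.69, 7.65, 7.77 and 7.78 in control tumors. Every combination and every MEKi tumor was above all 4 controls, whose SD was only 0.06. The difference from control was 0.39 ± 0.08 in combination tumors (adjusted p = 0.0129) and 0.52 ± 0.15 in MEKi tumors (adjusted p = 0.0460). In CD40 Ab tumors it was 0.12 ± 0.08 (adjusted p = 0.695), and the combination was 0.27 ± 0.10 above CD40 Ab (adjusted p = 0.152).

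A further Eng probe set ran with the first (r = 0.90 over 15 arrays). It was 0.43 ± 0.07 higher in combination tumors (adjusted p = 0.00267) and 0.59 ± 0.20 from control in MEKi tumors (adjusted p = 0.0863). The higher Eng level in the combination was called without any 1 array. Within the lower animal number series, which here leaves out control tumor 4 alone and so is 1 of those fits, it was 0.40 (adjusted p = 0.0252). In a fit of all 15 arrays its adjusted p was 0.0572, and with muscle and skin list levels as covariates the difference was 0.01 (adjusted p = 0.985). The call in MEKi tumors was lost without control tumor 1, 2, 3 or 4 or MEKi tumor 3 (adjusted p = 0.109, 0.114, 0.0912, 0.0879 and 0.0859), and without MEKi tumor 1 the difference was 0.33. It was also lost with the animal number series as a covariate (0.46, adjusted p = 0.400), with muscle and skin list levels as covariates (0.25, adjusted p = 0.616), with the replicate number as a block (0.54, adjusted p = 0.103) and with the Eng probe sets averaged (0.56, adjusted p = 0.0563).

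**Figure D2:**
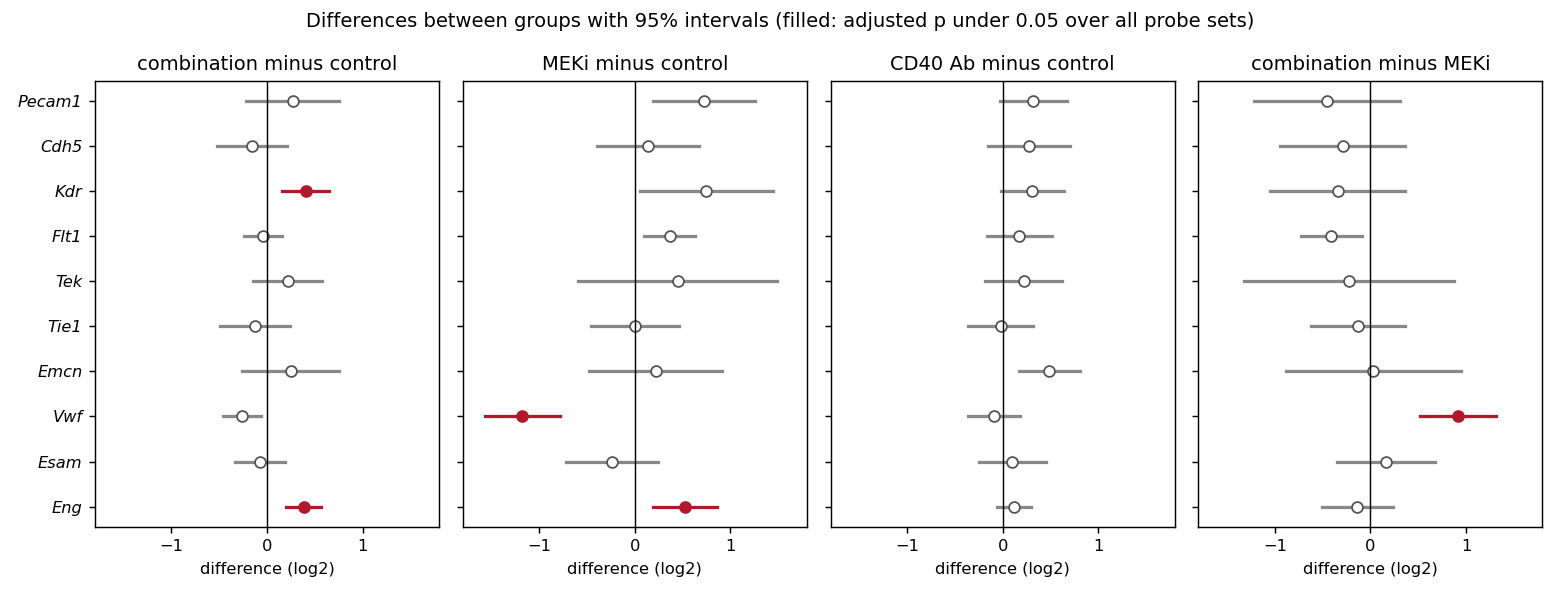
Differences in log2 signal (horizontal axis) with 95% intervals from limma for the 10 endothelial genes, in 4 comparisons that share arrays. Filled red points passed an adjusted p of 0.05 over all probe sets: Kdr and Eng in combination minus control, Vwf and Eng in MEKi minus control, and Vwf in combination minus MEKi.

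Kdr, the main VEGF-A receptor, was 6.47, 6.71, 6.79 and 6.46 in combination tumors, 7.82, 6.44 and 6.59 in MEKi tumors, 6.92, 6.55, 6.21 and 6.36 in CD40 Ab tumors and 6.07, 6.37, 6.34 and 6.02 in control tumors. All 4 combination and all 3 MEKi tumors exceeded the highest control, and MEKi tumor 1 was far above the others. Kdr was 0.41 ± 0.11 higher in combination than in control tumors (95% interval 0.16 to 0.65, adjusted p = 0.0358). In MEKi tumors the difference of 0.75 ± 0.30 did not pass (adjusted p = 0.138), and it was 0.32 without MEKi tumor 1. In CD40 Ab tumors it was 0.31 ± 0.15 (adjusted p = 0.537), and 0.17 without CD40 Ab tumor 1. The call in the combination was lost without combination tumor 2, combination tumor 3, control tumor 1 or control tumor 4 (adjusted p = 0.0895, 0.0788, 0.101 and 0.0866) and in a fit of all 15 arrays (adjusted p = 0.317). Its direction turned with muscle and skin list levels as covariates (-0.20, adjusted p = 0.827).

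Flt1, the VEGF receptor that can act as a decoy, was 7.20, 7.24, 7.44 and 7.02 in combination tumors, 7.90, 7.40 and 7.60 in MEKi tumors, 7.97, 7.32, 7.31 and 7.17 in CD40 Ab tumors and 7.27, 7.18, 7.30 and 7.33 in control tumors. The MEKi tumors lay above the controls without overlap, whereas the combination tumors were spread around them. The difference from control was -0.05 ± 0.09 in combination tumors (adjusted p = 0.780), 0.36 ± 0.12 in MEKi tumors (adjusted p = 0.0723) and 0.17 ± 0.15 in CD40 Ab tumors (adjusted p = 0.780). The MEKi difference was 0.23 without MEKi tumor 1, and 0.48 and called without MEKi tumor 2 (adjusted p = 0.0240). The CD40 Ab difference was -0.0033 without CD40 Ab tumor 1. In the combination Flt1 was 0.41 ± 0.14 below MEKi (log2 difference -0.41, adjusted p = 0.182). Of 3 further Flt1 probe sets, 1 had an interaction past the threshold (-0.93 ± 0.24, adjusted p = 0.0488), while the others had -0.55 ± 0.23 and -0.35 ± 0.25 (adjusted p = 0.229 and 0.538). The MEKi differences of these 3 were 0.46, 0.34 and -0.10, and none passed.

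The Tie receptors did not pass in any comparison. Tek was 4.75, 4.78, 5.40 and 4.66 in combination tumors, 6.47, 4.38 and 4.53 in MEKi tumors, 5.44, 4.91, 4.78 and 4.47 in CD40 Ab tumors and 4.57, 4.73, 4.91 and 4.51 in control tumors. The single value of 6.47 in MEKi tumor 1 gave the group an SD of 1.17, and the other MEKi tumors were below the control mean of 4.68. Tek differed from control by 0.22 ± 0.16 in combination tumors (adjusted p = 0.415), 0.45 ± 0.45 in MEKi tumors (adjusted p = 0.553) and 0.22 ± 0.18 in CD40 Ab tumors (adjusted p = 0.759). Without MEKi tumor 1, the MEKi difference was -0.23, and without CD40 Ab tumor 1 the CD40 Ab difference was 0.04. Without combination tumor 3 the combination difference was 0.05.

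Tie1 was 4.50, 4.93, 4.69 and 4.23 in combination tumors, 5.15, 4.37 and 4.63 in MEKi tumors, 4.97, 4.51, 4.44 and 4.85 in CD40 Ab tumors and 4.75, 4.98, 4.76 and 4.36 in control tumors. All groups overlapped, and the differences from control were between -0.13 and 0.00 in the 3 treated groups. The MEKi difference of Tie1 was -0.21 without MEKi tumor 1. The means of Tek and Tie1 over 15 arrays, 4.89 and 4.67, were below 5.202, the median over all probe sets, so both probe sets were dim.

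Among the junction genes, Pecam1 had 6.28, 6.91, 7.14 and 6.04 in combination tumors, 7.69, 6.61 and 6.84 in MEKi tumors, 7.17, 6.55, 6.46 and 6.41 in CD40 Ab tumors and 6.52, 6.21, 6.30 and 6.27 in control tumors. The MEKi tumors lay above all controls, and combination tumors 1 and 4 lay below the highest control. The difference from control was 0.27 ± 0.22 in combination tumors (adjusted p = 0.466), 0.72 ± 0.23 in MEKi tumors (95% interval 0.19 to 1.25, adjusted p = 0.0722) and 0.32 ± 0.16 in CD40 Ab tumors (adjusted p = 0.542). For Pecam1, the MEKi difference was called without MEKi tumor 1 (0.40, adjusted p = 0.0446) and without MEKi tumor 2 (0.94, adjusted p = 0.0295). The CD40 Ab difference was 0.15 without CD40 Ab tumor 1, and the combination difference was 0.09 without combination tumor 3.

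Cdh5, the adherens junction cadherin, was 5.98, 6.63, 6.56 and 5.94 in combination tumors, 7.22, 6.17 and 6.32 in MEKi tumors, 7.32, 6.79, 6.38 and 6.35 in CD40 Ab tumors and 6.42, 6.56, 6.49 and 6.25 in control tumors. Every group overlapped the controls, and combination tumors 1 and 4 were below all 4 of them. Its differences from control were -0.15 ± 0.16, 0.14 ± 0.23 and 0.28 ± 0.19 in combination, MEKi and CD40 Ab tumors (adjusted p = 0.587, 0.727 and 0.701). The MEKi difference turned to -0.18 without MEKi tumor 1, and the CD40 Ab difference was 0.08 without CD40 Ab tumor 1.

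Esam, a tight junction adhesion molecule, was 7.84, 8.19, 8.23 and 7.85 in combination tumors, 8.43, 7.49 and 7.67 in MEKi tumors, 8.71, 8.07, 8.08 and 7.95 in CD40 Ab tumors and 8.28, 8.17, 8.06 and 7.90 in control tumors. MEKi tumors 2 and 3 were the lowest of the 15 and MEKi tumor 1 was above every control. Over the 3 MEKi tumors the difference from control was -0.24 ± 0.21 (adjusted p = 0.492), and without MEKi tumor 1 it was -0.52 and passed (adjusted p = 0.0196). In combination tumors it was -0.08 ± 0.12 (adjusted p = 0.719) and in CD40 Ab tumors 0.10 ± 0.16 (adjusted p = 0.897), or -0.07 without CD40 Ab tumor 1.

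Emcn, the surface sialomucin, came closest to a call under CD40 Ab alone. Its level was 6.58, 7.14, 7.40 and 6.19 in combination tumors, 7.68, 6.23 and 6.48 in MEKi tumors, 7.48, 7.13, 6.96 and 6.71 in CD40 Ab tumors and 6.71, 6.46, 6.65 and 6.50 in control tumors. The lowest CD40 Ab tumor equalled the highest control, and the combination tumors spread to both sides of the controls. The difference from control was 0.25 ± 0.23 in combination tumors (adjusted p = 0.522), 0.22 ± 0.30 in MEKi tumors (adjusted p = 0.678) and 0.49 ± 0.14 in CD40 Ab tumors (95% interval 0.17 to 0.81, adjusted p = 0.227). It was the 1 gene of the 10 below 0.05 without adjustment under CD40 Ab, and the difference was 0.35 without CD40 Ab tumor 1. The MEKi difference turned to -0.23 without MEKi tumor 1, and the combination difference was 0.06 without combination tumor 3 and 0.46 without combination tumor 4.

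Counting genes whose tumors did not overlap those of the control group, 2 were higher and 1 lower in the combination (8.64% and 11.8% of all probe sets), and 4 were higher and 1 lower in MEKi tumors (11.9% and 16.8%). In CD40 Ab tumors 0 were higher and 0 lower, beside 3.31% and 2.68% of all probe sets. The group with the highest mean was MEKi for 6 of the 10 genes, CD40 Ab for 3 (Cdh5, Emcn and Esam) and control for Vwf. The lowest mean was in control tumors for 5 genes, in combination tumors for 3 and in MEKi tumors for 2 (Vwf and Esam). In these orders the only neighboring groups whose tumors did not overlap were combination over MEKi for Vwf.

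The spread itself differed between groups. MEKi tumors had the highest SD of the 4 groups for 9 of the 10 genes, with a median SD of 0.53, compared with 0.25 in combination, 0.33 in CD40 Ab and 0.14 in control tumors. Control tumors had the lowest SD for 7 genes. This difference in spread was not tested.

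**Figure D3:**
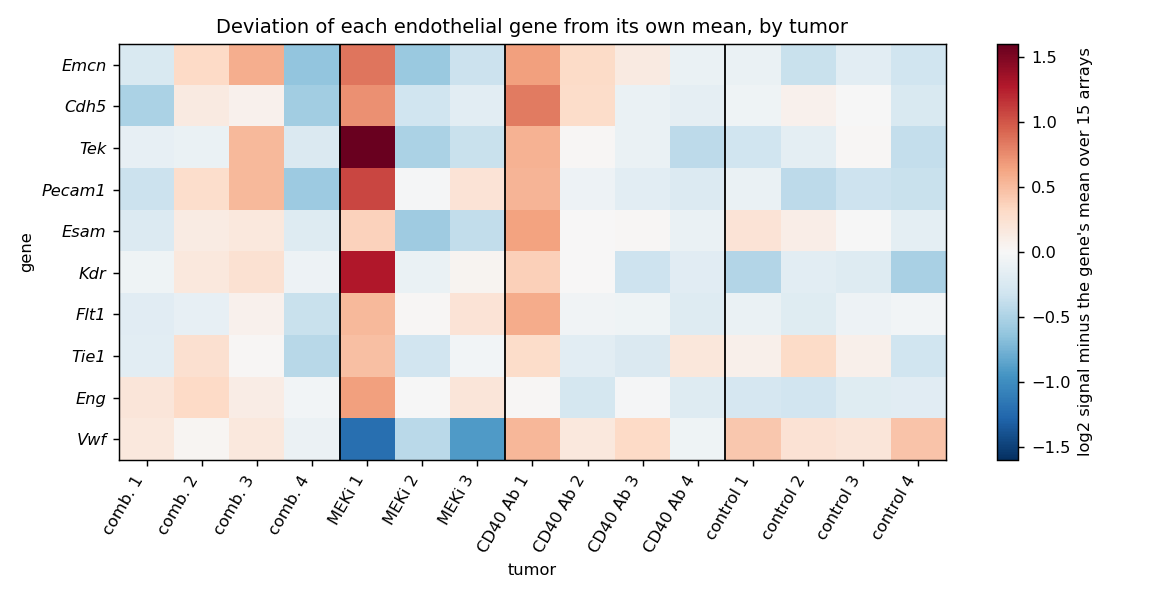
Log2 signal of each endothelial gene (rows) minus its own mean over 15 arrays, in each tumor (columns, grouped as combination, MEKi, CD40 Ab and control; red above and blue below the mean). The columns of MEKi tumor 1 and CD40 Ab tumor 1 are red for nearly all genes, and Vwf is blue in the 3 MEKi tumors.

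Tumors that were high for 1 endothelial gene tended to be high for the others, with the exception of Vwf. MEKi tumor 1 held the highest value of the 15 for 6 genes and CD40 Ab tumor 1 for the other 4 (Cdh5, Flt1, Vwf and Esam), while combination tumor 4 held the lowest for 5. Of the 36 pairs among the 9 genes without Vwf, 30 had a Pearson r above 0.5 over the 15 tumors, and all 36 had one after group means were subtracted (lowest 0.54). The highest pair was Kdr with Tek (r = 0.90), which are both receptor tyrosine kinases, and the lowest was Vwf with Eng (r = -0.67). These correlations are descriptions over 15 tumors, each with 1 array. Flt1, for example, had r = 0.76 with the mean of the other 9 genes, and 0.18 without MEKi tumor 1 and CD40 Ab tumor 1.

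Emcn followed the mean of the other members most closely (r = 0.92, and 0.91 without MEKi tumor 1 and CD40 Ab tumor 1). Eng had r = 0.50, or 0.76 once group means were subtracted, and 0.14 without MEKi tumor 1. Vwf had r = -0.34 with the mean of the other 9, and 0.28 without MEKi tumor 1. In that tumor the other 9 genes were on average 0.84 above their means while Vwf was the lowest of the 15. In CD40 Ab tumor 1 the other 9 were 0.50 above their means and Vwf, at 6.28, was the highest of the 15.

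**Figure D4:**
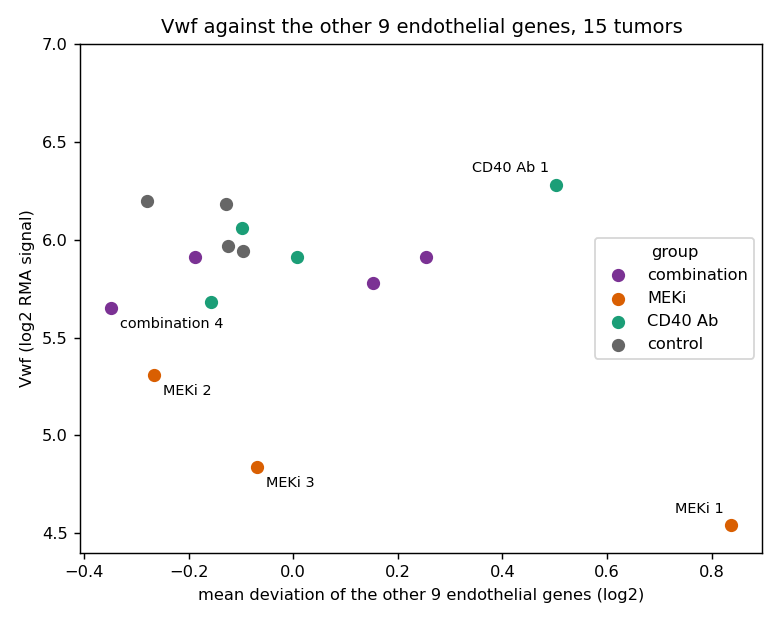
Vwf level (vertical axis, log2 RMA signal) against the mean deviation of the other 9 endothelial genes (horizontal axis, log2) in 15 tumors colored by group. The MEKi tumors lie at the bottom, from 4.54 to 5.31, whether the other 9 genes are high (MEKi tumor 1) or not.

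The genes outside the 10 that most resembled their mean over the 15 tumors were Ramp2 (r = 0.96), Mmrn2 (0.95), Robo4 (0.94), Cd93 (0.93) and Fam167b (0.93). Ramp2 is a partner of the adrenomedullin receptor, Mmrn2 an endothelial matrix protein, Robo4 an endothelial guidance receptor and Cd93 a surface lectin of endothelial and myeloid cells. Without MEKi tumor 1 and CD40 Ab tumor 1 these correlations were between 0.81 and 0.90. Of 20 other genes widely expressed in endothelium, 14 had r above 0.8 with the 10-gene mean after group means were subtracted. The list level of the 20 ran with the 9 genes at r = 0.94. How many of all measured genes exceed 0.8 was not counted. With MEKi tumor 1 and CD40 Ab tumor 1 left out and group means kept, only Robo4, Mmrn2, Cd34 and Clec14a of the 20 exceeded 0.8 (0.87, 0.86, 0.82 and 0.81). Cldn5 and Sox7 were then lowest, both at 0.12.

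Among those 20 genes, 1 rose and 2 fell in the combination against control, 1 rose and 3 fell in MEKi, and 0 passed in CD40 Ab tumors, where 8 of the 20 had p below 0.05 before adjustment, beside 10% of all probe sets. Over all probe sets, 7.09% rose and 7.23% fell in the combination, and 7.52% and 8.38% in MEKi tumors. Claudin-5 (Cldn5), the main tight junction claudin of endothelium, fell most. It was 5.71, 6.54, 6.15 and 5.85 in combination tumors, 6.38, 6.27 and 6.19 in MEKi tumors, 8.29, 7.55, 7.28 and 7.45 in CD40 Ab tumors and 7.80, 7.78, 7.44 and 7.41 in control tumors. No combination or MEKi tumor overlapped a tumor without MEKi, and the differences from control were -1.54 ± 0.18 in combination (adjusted p = 0.000659) and -1.33 ± 0.12 in MEKi tumors (adjusted p = 0.000469). The combination was also 1.58 ± 0.24 below CD40 Ab (log2 difference -1.58, adjusted p = 0.00935).

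Ptprb (VE-PTP), the phosphatase that acts on TIE2 and VE-cadherin, was low in MEKi tumors 2 and 3. It was 9.05, 8.99, 9.07 and 8.99 in combination tumors, 8.80, 7.75 and 7.93 in MEKi tumors, 9.38, 8.78, 8.90 and 8.83 in CD40 Ab tumors and 9.17, 9.34, 9.22 and 8.99 in control tumors. It fell by 1.02 ± 0.23 in MEKi tumors relative to control (adjusted p = 0.0210), and its interaction was 1.07 ± 0.27 (adjusted p = 0.0462). Podxl, a sialomucin of endothelial and other cells, fell by 0.70 ± 0.12 in combination (adjusted p = 0.00540) and by 0.88 ± 0.12 in MEKi tumors (adjusted p = 0.00252). Sox7, an endothelial transcription factor, had an interaction of -0.95 ± 0.20 (adjusted p = 0.0177), and Ecscr, an endothelial surface protein, rose by 0.38 ± 0.09 in the combination (adjusted p = 0.0231).

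Of 9 VEGF, angiopoietin and related ligands, 1 rose and 1 fell in combination and 2 rose and 2 fell in MEKi tumors. The shares of all probe sets were 7.09% up and 7.23% down in combination and 7.52% and 8.38% in MEKi tumors. Angpt1, the agonist of TIE2, rose by 0.53 ± 0.11 in combination tumors (adjusted p = 0.0113). In MEKi tumors it was 7.63, 4.70 and 5.37, against 4.74, 4.77, 4.67 and 4.51 in controls (difference 1.23 ± 0.59, adjusted p = 0.200). Angpt2, its context-dependent antagonist, differed from control by 0.02 ± 0.08 in combination and 0.12 ± 0.17 in MEKi tumors (adjusted p = 0.898 and 0.697).

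Vegfa, the ligand of Kdr and Flt1, was 8.61, 9.30, 9.45 and 9.37 in combination tumors, 8.05, 8.82 and 8.34 in MEKi tumors, 9.11, 9.20, 8.80 and 9.01 in CD40 Ab tumors and 8.77, 8.94, 9.08 and 9.23 in control tumors. The MEKi tumors overlapped the controls, and the difference of -0.60 ± 0.18 did not pass (adjusted p = 0.0606). Vegfb, a ligand of Flt1, fell by 0.27 ± 0.07 in combination (adjusted p = 0.0308) and by 0.64 ± 0.16 in MEKi tumors (adjusted p = 0.0292). Vegfc, which acts on the lymphatic receptor Flt4 and on Kdr, rose by 1.27 ± 0.30 in MEKi tumors (adjusted p = 0.0255), with an interaction of -1.45 ± 0.35 (adjusted p = 0.0365). Apln, the apelin ligand, rose by 0.60 ± 0.15 in MEKi tumors (adjusted p = 0.0266).

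The genes around Eng moved in both directions. Of 14 genes of endoglin and BMP signalling (Eng itself not among them), 3 rose and 2 fell in combination and 3 rose and 3 fell in MEKi tumors. Beside these, 7.09% of all probe sets rose and 7.23% fell in combination, and 7.52% and 8.38% in MEKi tumors. Acvrl1 (ALK1), the type I receptor that signals with endoglin, rose by 0.73 ± 0.09 in combination (adjusted p = 0.000986) and by 0.68 ± 0.18 in MEKi tumors (adjusted p = 0.0388). Id1, a BMP target, rose by 0.34 ± 0.07 in combination (adjusted p = 0.0112) and by 0.74 ± 0.08 in MEKi tumors (adjusted p = 0.00108), with an interaction of -0.60 ± 0.13 (adjusted p = 0.0214). The ligand Bmp2 fell by 1.18 ± 0.15 in combination (adjusted p = 0.00112) and by 1.32 ± 0.14 in MEKi tumors (adjusted p = 0.000930), and Bmp4 fell by 0.57 ± 0.09 and 0.51 ± 0.11 in those groups (adjusted p = 0.00341 and 0.0146).

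Of 16 Notch and tip cell genes, 3 rose and 1 fell in combination and 1 rose and 1 fell in MEKi tumors. All probe sets gave 7.09% up and 7.23% down in combination and 7.52% and 8.38% in MEKi tumors. Pdgfb, with which endothelial cells recruit pericytes, rose by 0.73 ± 0.06 in combination (adjusted p = 0.000148) and by 0.37 ± 0.07 in MEKi tumors (adjusted p = 0.0112), and it was 0.68 ± 0.07 above CD40 Ab in the combination (adjusted p = 0.00163). Unc5b, a netrin receptor of endothelium, fell by 0.49 ± 0.07 in combination (adjusted p = 0.00255) and by 0.70 ± 0.09 in MEKi tumors (adjusted p = 0.00180). Dll4, the Notch ligand of tip cells, was between -0.04 and 0.06 from control in the 3 treated groups, and none of these differences passed. Cxcr4 rose by 0.67 ± 0.16 in the combination (adjusted p = 0.0209), and it is also expressed by leukocytes.

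Adhesion molecules that capture leukocytes rose in part. Of 13 such genes and permeability genes, 3 rose and 1 fell in combination and 3 rose and 3 fell in MEKi tumors. The shares of all probe sets were 7.09% up and 7.23% down in combination and 7.52% and 8.38% in MEKi tumors. Vcam1 was 11.97, 12.13, 11.83 and 12.08 in combination tumors, 11.93, 11.65 and 11.89 in MEKi tumors, 11.11, 11.10, 11.38 and 11.54 in CD40 Ab tumors and 10.99, 11.12, 10.90 and 11.29 in control tumors. It was higher than control by 0.93 ± 0.10 in combination (adjusted p = 0.000503) and by 0.75 ± 0.11 in MEKi tumors (adjusted p = 0.00432). Icam1 was higher by 0.61 ± 0.10 and 0.59 ± 0.13 in those groups (adjusted p = 0.00401 and 0.0170). The probe set of Sele, the E-selectin of activated endothelium, was dim (mean 2.99 over 15 arrays), so it could not show whether that gene changed. Madcam1 and Glycam1, of the same list, were dim too (4.18 and 3.07). Selp (P-selectin) had means of 5.87 in combination, 5.67 in MEKi and 5.81 in control tumors, and Ackr1 had 5.54, 5.14 and 5.36. Cdh2 (N-cadherin) fell by 0.76 ± 0.11 in combination (adjusted p = 0.00263) and by 1.79 ± 0.10 in MEKi tumors (adjusted p = 7.08e-05), and F11r was 0.29 ± 0.06 above CD40 Ab in the combination (adjusted p = 0.0350). Vcam1, Icam1 and Cdh2 are expressed by other cells of a tumor as well.

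Among 11 measured hemostasis genes of the vessel wall other than Vwf, 2 rose and 2 fell in combination tumors, and 2 rose and 2 fell in MEKi tumors. All probe sets gave 7.09% up and 7.23% down in combination and 7.52% and 8.38% in MEKi tumors. Thbd (thrombomodulin), which turns thrombin toward anticoagulation, rose by 0.83 ± 0.13 in combination (adjusted p = 0.00330) and by 1.85 ± 0.44 in MEKi tumors (adjusted p = 0.0250), where its tumors were at 8.58, 6.34 and 7.06, against 5.54, 5.49, 5.33 and 5.53 in controls. Procr, the endothelial protein C receptor, fell by 0.70 ± 0.09 in MEKi tumors (adjusted p = 0.00224), and Tfpi, the tissue factor pathway inhibitor, fell by 0.38 ± 0.10 in the combination (adjusted p = 0.0351). Edn1, the vasoconstrictor endothelin-1, rose by 1.14 ± 0.22 in combination tumors (adjusted p = 0.00883). Plaur, the urokinase receptor, fell by 0.27 ± 0.07 in combination (adjusted p = 0.0418) and rose by 0.59 ± 0.09 in MEKi tumors (adjusted p = 0.00405), and was lower by 0.86 ± 0.09 in the combination than in MEKi tumors (log2 difference -0.86, adjusted p = 0.00357).

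Vwf is also carried by platelets, so their genes were set beside it. Of 8 measured platelet and megakaryocyte genes, 3 fell in combination and 3 in MEKi tumors, beside 7.23% and 8.38% of all probe sets. The chemokine Pf4 fell by 0.54 ± 0.10 and 0.72 ± 0.12 (adjusted p = 0.00702 and 0.00582), Ppbp fell by 0.77 ± 0.16 and 0.81 ± 0.17 (adjusted p = 0.0115 and 0.0151) and Treml1 fell by 0.27 ± 0.06 and 0.38 ± 0.07 (adjusted p = 0.0168 and 0.00900). The other 5 genes were not called in either group, and 3 of the 8 in combination and 2 of the 8 in MEKi tumors had a positive difference. The platelet receptor genes Gp9 and Gp1bb had means of 5.08 and 5.29 in MEKi and 5.06 and 5.24 in control tumors. The probe sets of Ppbp, Gp9, Gp5 and Gp6 were dim (means 4.19, 5.08, 4.01 and 3.82 over 15 arrays, below 5.202, the median over all probe sets). Gp1bb, at 5.26, was just above that. Flat values of Gp9, Gp1bb, Gp5 and Gp6 thus could not show whether those genes changed. The list level was 5.28 to 5.40 in combination, 5.17 to 5.27 in MEKi, 5.41 to 5.61 in CD40 Ab and 5.46 to 5.59 in control tumors. Over the 15 tumors Vwf had r = 0.78 with this list level, and 0.30 after group means were subtracted. Pf4 is also made by macrophages, and the part of platelets in the Vwf result was not tested.

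Pericytes and smooth muscle cells, which wrap vessels, had list levels of 6.77 to 7.17 in combination, 6.77 to 7.46 in MEKi, 6.31 to 6.86 in CD40 Ab and 6.46 to 6.55 in control tumors. Of 12 mural genes, 5 rose and 0 fell in combination and 5 rose and 0 fell in MEKi tumors, while 0 passed in CD40 Ab tumors. The shares of all probe sets were 7.09% up and 7.23% down in combination and 7.52% and 8.38% in MEKi tumors. In CD40 Ab tumors 0.717% passed. Rgs5, a pericyte marker, was 8.85, 9.83, 10.06 and 8.80 in combination tumors, 10.49, 9.35 and 9.50 in MEKi tumors, 9.90, 8.89, 8.62 and 8.65 in CD40 Ab tumors and 8.70, 8.75, 8.74 and 8.52 in control tumors. It rose by 1.10 ± 0.25 in MEKi tumors (adjusted p = 0.0202), as did Pdgfrb by 1.20 ± 0.23 (adjusted p = 0.0114), a receptor that fibroblasts also carry. In the combination the differences were 0.71 ± 0.27 for Rgs5 and 0.38 ± 0.14 for Pdgfrb (adjusted p = 0.114 and 0.111), while the contractile genes Des, Cnn1 and Acta2 rose by 1.48 ± 0.29, 1.41 ± 0.35 and 1.13 ± 0.17 (adjusted p = 0.00975, 0.0249 and 0.00281). Des is also a skeletal muscle gene, and the Cnn1 probe set was dim (mean 4.59 over 15 arrays, below 5.202). With group means subtracted, Des, Cnn1 and Acta2 had r = 0.45, -0.41 and 0.33 with the mean of the 10 endothelial genes. Which cells carried these rises was not tested. In the combination 9 of the 12 mural genes had a positive difference from control, so the list did not move as 1. Kcnj8 had a mean of 5.13 in combination and 6.05 in control tumors, and Abcc9 6.60 and 7.11, and neither was called there. With group means subtracted, the mural list level ran with the 9 endothelial genes at r = 0.96, and Rgs5 with the mean of the 10 at r = 0.95. Without that subtraction Rgs5 had r = 0.79 over the 15 tumors, and 0.58 without MEKi tumor 1 and CD40 Ab tumor 1. Lists of other cells also ran with the 9 genes once group means were subtracted, leukocytes and macrophages at r = 0.87 and fibroblasts at 0.76.

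Of 7 measured genes of lymphatic endothelium, 1 rose in combination and 1 in MEKi tumors, which is near the share of all probe sets called there (14.3% and 15.9% in either direction). In both cases it was Pdpn (podoplanin), higher by 0.62 ± 0.16 and 2.42 ± 0.19 (adjusted p = 0.0298 and 0.000263). Pdpn is carried by fibroblasts and keratinocytes too, and the fibroblast list level was 10.9 to 11.7 in MEKi and 9.45 to 9.73 in control tumors. Lyve1, a lymphatic and macrophage receptor, was 3.30, 3.74, 6.61 and 3.49 in combination tumors, 3.74, 4.36 and 3.76 in MEKi tumors, 3.90, 4.52, 4.29 and 4.21 in CD40 Ab tumors and 3.38, 3.51, 3.86 and 3.50 in control tumors. The value in combination tumor 3 stood far above the other 3, and Lyve1 passed in no comparison. The probe sets of Prox1, Lyve1, Reln, Mmrn1 and Foxc2 were dim (means 3.50, 4.01, 3.59, 3.17 and 3.32 over 15 arrays, below 5.202). Flt4 was close to that limit at 5.23, so the count of calls says little about lymphatic endothelium.

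Other cell types moved with the groups as well, and their part in the endothelial results was not tested except through the covariates named above. Beside the counts that follow, 7.09% of all probe sets rose and 7.23% fell in combination, and 7.52% and 8.38% in MEKi tumors. In CD40 Ab tumors 0.659% rose and 0.0577% fell. Of 16 skeletal muscle genes, 15 rose in combination and 4 in MEKi tumors. Of 13 skin and hair genes, 0 rose in combination and 8 in MEKi tumors, and of 10 fibroblast genes 4 and 8 rose. Of 11 leukocyte and macrophage genes, 7 rose and 1 fell in combination, 0 rose and 1 fell in MEKi and 4 rose in CD40 Ab tumors, with Ptprc (CD45) 1.55 ± 0.18 higher in the combination (adjusted p = 0.000780) and 0.97 ± 0.14 higher in CD40 Ab tumors (adjusted p = 0.0240). Mitotic genes fell in 9 of 11 cases in combination and 6 of 11 in MEKi tumors. Of 8 adipocyte genes, 2 rose in the combination. Of 10 epithelial tumor cell genes, 2 rose in the combination and 2 rose and 2 fell in MEKi tumors, and this list's level was between 10.2 and 11.1 in every tumor.

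Within MEKi tumor 1, where 6 endothelial genes had their highest value, the list levels of muscle (10.1), fibroblasts (11.7) and mural cells (7.46) were also the highest of the 15 tumors, and that of mitotic genes (7.31) was the lowest. Over the 15 tumors the mean of the 9 endothelial genes had r = 0.34 with the muscle and 0.04 with the skin list level. With group means subtracted, these were 0.49 and -0.43. Vwf had r = -0.82 with the fibroblast and 0.81 with the mitotic list level, and -0.07 and 0.57 after group means were subtracted.

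**Figure D5:**
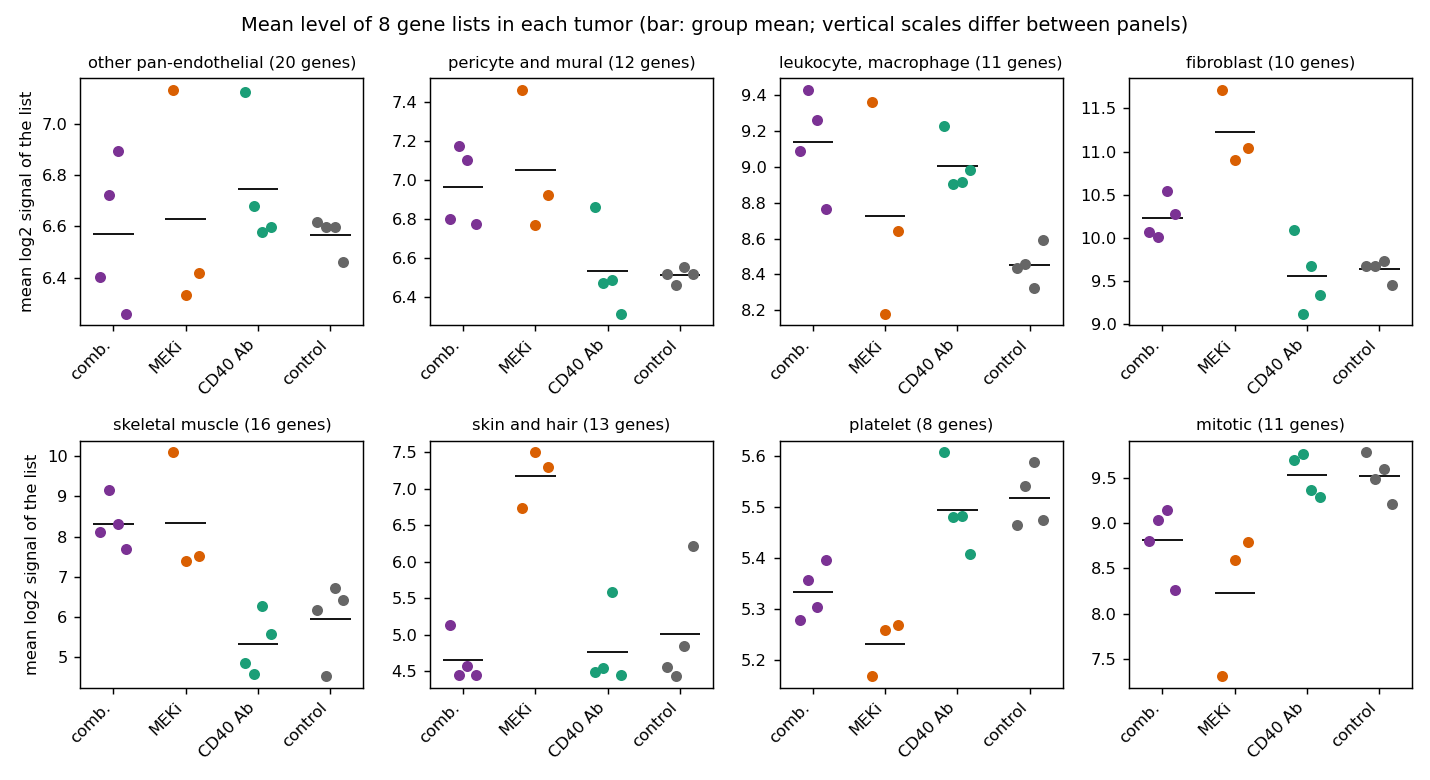
Mean log2 signal of 8 gene lists (vertical axis, own scale in each panel) in combination, MEKi, CD40 Ab and control tumors. Points are tumors and bars group means. The pan-endothelial list overlaps between all groups, whereas muscle genes are high in both MEKi arms and skin genes, at 6.73 to 7.50, in MEKi tumors.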

How the data were processed

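RNA of 15 whole PDA30364 tumors was run on Affymetrix whole-genome mouse arrays after labelling from the 3' end. The deposited values were log2 signals per probe set, which the authors made by RMA (version not given in the sources used here). Its quantile step forces 1 signal distribution on all arrays, so values are relative. Of 45101 probe sets, 64 Affymetrix controls were left out.

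Groups were compared by limma 3.58.1 (R 4.3.3) in two-sided fits of the 2 groups' arrays, and the interaction over all 15, with Benjamini-Hochberg adjustment over 45037 probe sets. The fits were tested on simulated data. The 10 genes, the other gene lists (17 lists and 204 genes in all, 197 of them measured by a probe set of 1 symbol) and the tests were chosen with earlier results of these data known. The text names all 10 genes, up to 3 called genes with the largest change per list and comparison, the 5 genes most alike and some marker genes picked whatever their values. A gene named for 1 comparison is given in others too. Levels carry SD and differences SE. The labels give each tumor an animal number of its own. Deviations of same-numbered tumors of different groups had r between -0.28 and 0.21 (21 pairs, 9 of them above 0.1). For differently numbered tumors r was between -0.25 and 0.22 (63 pairs). These like ranges gave no sign that numbers pair the tumors but cannot exclude it, and the main fits did not pair them. The sources differ on the number of mice per group, and it is open whether all MEKi arrays are here. Alternatives covered normalization, filters, probe set choice, covariates, thresholds and leaving out each array.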

Additional observations from a re-analysis of the deposited data

Results flagged for a closer look

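Lone arrays were sought by Dixon's ratio in combination, CD40 Ab and control tumors. Among 78 sets of group values for the 10 endothelial genes and the list levels, 4 had a lone array far from the other 3, where chance alone gives about 1 in 20. The 3 MEKi tumors were not checked in this way, so MEKi tumor 1 (Tek 6.47, next to 4.53) is not covered. Tek was 5.40 in combination tumor 3, next to 4.78. The lymphatic list level was 4.93 in the same tumor, next to 4.39, and Lyve1 was 6.61 there. The level of the 20 other pan-endothelial genes was 6.46 in control tumor 4, next to 6.60. The skin and hair level was 5.58 in CD40 Ab tumor 3, next to 4.54.

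The interaction of CD40 Ab and MEKi (limma, all 15 arrays) passed the threshold for Vwf (1.01, adjusted p = 0.0245) and, in the vessel lists, for Ptprb (1.07, 0.0462), Sox7 (-0.95, 0.0177), Vegfc (-1.45, 0.0365), Unc5b (0.50, 0.0203), Id1 (-0.60, 0.0214), Cdh2 (1.29, 0.00128), Plaur (-0.83, 0.00672) and Pdpn (-2.01, 0.00672). Among genes of other cells it passed for Cd68 (0.70, adjusted p = 0.0365), Dpt (-3.29, 0.00681), Dcn (-2.12, 0.0298), Krtap16-3 (-5.13, 0.00281), Krt5 (-2.99, 0.0233) and Krt15 (-1.95, 0.00728). Over all probe sets 1441 interactions passed, 84 with the series as a covariate and 81 with the muscle and skin covariates. Combination and MEKi tumors lie in different animal number series, so series and treatment cannot be told apart between them. Cdh2 and Pdpn are carried by other cells too. Krtap16-3, Krt5 and Krt15 are in the skin and hair list, whose level was 6.73 to 7.50 in MEKi tumors.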

How the results depend on the processing

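Of 1248 values of the 10 genes under alternatives, 1203 kept their call or lack of one (68 signs turned without a call), 37 lost a call in the same direction, 7 gained one, and 1 lost its call and turned direction. The last was Kdr in the combination against control, -0.20 (adjusted p = 0.827) with muscle and skin list levels as covariates. Most of the 1203 were not called in the main fit either, so that count says little about the calls. In the combination against control Kdr kept its call in 11 of 21 alternatives and Eng in 18 of 21. In MEKi against control Vwf kept it in 18 of 19 and Eng in 9 of 19. Vwf kept it in 10 of 18 in the combination against MEKi and in 20 of 26 for the interaction. In the combination against control, where 2 genes were called, 0 were in a fit of all 15 arrays, 0 with those covariates, 0 at an adjusted p of 0.01, and 1 with the animal number series as a covariate or within the lower series. Leaving out 1 array gave 1 to 2. For this comparison the series covariate, the lower series and leaving out control tumor 4 are the same fit, so they are not separate alternatives. In MEKi against control, with 2 called, 1 was called when a gene's probe sets were averaged, 1 with the covariates, 1 at 0.01, 0 with the series as a covariate and 1 with a replicate block, and leaving out 1 array gave 1 to 4. In the combination against MEKi, with 1 called, 0 were with a replicate block, 0 with the covariates and 0 at 0.01, and leaving out 1 array gave 0 to 1. For the interaction, with 1 called, 0 were with the series, 0 with the covariates and 0 at 0.01, and leaving out 1 array gave 0 to 1. In CD40 Ab against control and in the combination against CD40 Ab, 0 of the 10 were called under all alternatives run. The causes were not tested. The replicate block ended the calls of Eng in MEKi against control (0.54, adjusted p = 0.103) and Vwf in the combination against MEKi (0.97, adjusted p = 0.159) and changed no other call among the 10 genes. A further quantile normalization ended the call of Kdr (adjusted p = 0.0731) and gave one for Vwf in the combination (-0.33, adjusted p = 0.0363).

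Over all probe sets, calls in MEKi against control were 7162 and fell to 720 with the series as a covariate, 540 with the muscle and skin covariates and 3159 with the replicate block. In the combination against control they were 6450 and 857 with the covariates, in the combination against MEKi 1264 and 45 with the covariates, 180 with the replicate block and 3663 with all 15 arrays in 1 fit, in the combination against CD40 Ab 2019 and 170 with the covariates and 935 with the replicate block, and for the interaction 1441 and 84 with the series and 81 with the covariates. In CD40 Ab against control 323 were called, 42 with all 15 arrays in 1 fit, 83 with the covariates, 14 within the lower series, and 0 without control tumor 1, 2 or 3 or CD40 Ab tumor 4. At 0.01 the counts were 2770 (combination against control), 2929 (MEKi), 0 (CD40 Ab), 322 (combination against MEKi), 365 (combination against CD40 Ab) and 321 (interaction). Averaging probe sets, which leaves fewer features, gave 3910, 4179 and 189 calls in combination, MEKi and CD40 Ab against control, and 1 probe set per gene gave 4141 and 4328 in the first 2. Within the lower series 973 were called in the combination against CD40 Ab. Leaving out 1 array gave 431 to 2089 in the combination against MEKi, 933 to 1908 in the combination against CD40 Ab and 745 to 2072 for the interaction. It gave 4077 and 4281 in the combination without control tumors 1 and 3, 4398 to 4770 in MEKi without control tumor 1, 2 or 3, and 150 and 159 in CD40 Ab against control without CD40 Ab tumors 1 and 3. Fits within the lower series were not run for comparisons with MEKi alone, which has no tumor there, nor the series covariate for the combination against MEKi. Tek and Tie1 were too dim to enter the fits without dim probe sets.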
